A study of Mus musculus with 15 samples.

Results

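The genes of the heterotrimeric G proteins and of the regulators of G protein signalling (RGS) were compared between purified mouse islet alpha, beta and delta cells. They were chosen by gene symbol from the deposited expression table, which gave 55 of its 38283 genes: 16 G alpha, 5 G beta and 12 G gamma subunits, 20 RGS genes and the 2 genes Rgs7bp and Rgs9bp, whose proteins anchor one family of RGS proteins to membranes. There were 5 alpha cell samples, 4 beta cell samples and 6 delta cell samples, and no treatment was compared. Alpha cells were sorted as Venus-positive cells from islets of Glu-Venus mice, in which the proglucagon promoter drives the fluorescent protein, and beta cells were collected in Glu-Venus sorts as Venus-negative cells of high scatter and autofluorescence. Delta cells were sorted as fluorescent cells from Sst-CreXROSA26EYFP/EYFP mice, in which Cre recombinase from the somatostatin gene switches on a yellow fluorescent protein. Delta cells therefore came from another mouse line than alpha and beta cells, and cell type and line cannot be told apart in comparisons with them. The mice of both lines had a C57BL/6 background. Islets of several mice made up each replicate, which is thus a pool of animals, and the ages of the mice were not given in the sources used here.

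A heterotrimeric G protein couples a cell-surface receptor to enzymes and channels inside the cell. The receptor makes the alpha subunit release GDP and take up GTP, whereupon the alpha subunit and the beta-gamma dimer act separately until the alpha subunit hydrolyses the GTP. Gs raises cyclic AMP, Gi and Go lower it and release beta-gamma dimers that open potassium channels and inhibit exocytosis, and Gq and G11 activate phospholipase C. RGS proteins speed the hydrolysis of GTP and so shorten the signal. In islets, incretin hormones and glucagon act largely through Gs, whereas somatostatin acts on alpha and beta cells through Gi and Go.

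Levels are given as FPKM, the fragments assigned to a gene relative to its transcript length and to the library size. Gcg, Ins1 with Ins2, and Sst were highest in the cell type of their label. Ins1 and Ins2 together stood at 117500 to 775900 FPKM in beta, 3667 to 12680 FPKM in alpha and 4852 to 9555 FPKM in delta samples. Sst was at 1139 to 2427 FPKM in alpha and at most 461 FPKM in beta samples, and Gcg at most 1817 FPKM in beta and 767 FPKM in delta samples. Ppy, the marker of pancreatic polypeptide cells, reached a mean of 30420 FPKM in alpha samples, 10860 to 48600 FPKM in delta samples and at most 98.1 FPKM in beta samples. The sum of 5 acinar markers was 18.5 to 126 FPKM in delta samples, at most 30.3 in alpha samples and at most 7.92 in beta samples, with none of the 5 at 0 in a whole cell type. Cela1 alone made 17.9 to 95.2 FPKM of it in delta samples and was called in delta against both other cell types, whereas the other 4 passed no test. Sums of 5 duct markers, mostly Spp1 and Krt7, were 25.3 to 172 FPKM in alpha, 8.56 to 24.2 FPKM in beta and 19.8 to 99.9 FPKM in delta samples. Sums of 7 leukocyte markers were 11.5 to 28.2, 5.29 to 34.1 and 17.9 to 46.4 FPKM, mostly C1qa in alpha and delta samples. In beta samples C1qa stood at 1.35 to 19.2 FPKM and Fcer1g at 2.30 to 13.3 FPKM. Ptprc, Laptm5, C1qb and Tyrobp had means of at most 0.559 FPKM in each cell type. C1qa was called higher in delta than in beta cells (limma adjusted p = 0.0278). Fcer1g had its highest mean in beta samples, at 6.34 FPKM beside 1.73 FPKM in delta samples, with no call. Sox9, a duct marker, was called higher in delta than in alpha (limma adjusted p = 0.0182) and beta cells (adjusted p = 0.0174), at 0.113 to 2.33 FPKM in delta samples. No other duct marker was called. Krt19 and Spp1 had their highest means in alpha samples, at 1.97 and 54.8 FPKM, and Krt19 was at 0 in all delta samples. Krt7 and Cftr had their highest means in delta samples, at 11.7 and 0.271 FPKM. The sum of 6 endothelial markers stayed between 0.642 and 6.17 FPKM, and that of 7 pericyte and fibroblast markers was 0.848 to 3.82 FPKM in alpha samples, where Cspg4 and Col1a1 were listed at 0, and at most 0.333 FPKM elsewhere. Col1a2 made nearly all of the alpha sum, at 0.848 to 3.79 FPKM, and was called higher in alpha than in beta (limma adjusted p = 0.00677) and delta cells (adjusted p = 0.00263). The part of these cells in the results was not tested. The summed level of 85 ribosomal protein genes split the samples: it lay at 65611 to 140979 FPKM in alpha 1 to 3, beta 2 and delta 1 and 2, and at 7919 to 38775 FPKM in the other 9, and values within these sets are given below. The first set holds 1 beta sample, beta 2, so for single genes the differences from beta cells within it are given with no p. The number of reads could be worked out from the steps between low values in 4 samples only, where it lay between 7.45 M and 30.4 M, and the depth of the other 11 is unknown.

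Of the 55 genes, 38 had a mean above 1 FPKM in at least 1 cell type and were tested with limma on log2(FPKM + 1), with Benjamini-Hochberg adjustment over all 14405 genes that passed this filter. An adjusted p under 0.05 is called a difference here. Across the cell types, 16 of the 38 (42.1%) differed by the F-test, beside 16.0% of all genes tested. They were 6 of 13 G alpha, 2 of 4 G beta, 3 of 7 G gamma and 5 of 13 RGS genes, while Rgs7bp, the tested anchor, had no F-test call. As a gene passes the filter through its highest cell type, the share is a description: 28 of the 38 exceeded 1 FPKM in all 3 cell types, 3 in 2 of them and 7 in 1. Of the last, Gnal, Gnat3 and Rgs11 were called in a comparison. In beta against alpha cells, 2 genes were higher and 6 lower, or 8 of 38 beside 7.66% of all genes (2.84% higher and 4.82% lower). In delta against alpha cells, 6 were higher and 1 lower, or 7 of 38 beside 6.81% (5.33% higher and 1.48% lower). In delta against beta cells, 11 were higher and 4 lower, or 15 of 38 beside 14.7% (11.7% higher and 2.99% lower). Of all genes called in these comparisons, 37.0%, 78.3% and 79.6% were higher. These shares depend on the scaling and were 53.0%, 67.5% and 51.0% with size factors from median ratios and 47.6%, 56.8% and 50.9% by quantiles. Rescaled to size factors from median ratios or by quantiles, the levels gave 4 higher and 6 lower of the genes described here in beta against alpha cells (beside 14.6% and 13.7% of all genes called), and by quantiles 3 higher and 1 lower in delta against alpha cells (beside 7.55%). In delta against beta cells they gave 11 higher and 5 lower (beside 18.6%) and 12 higher and 5 lower (beside 19.1%). The median difference of the 38 genes was -0.35, 0.56 and 0.74 on the log2 scale in these 3 comparisons, and that of all genes was -0.13, 0.13 and 0.30. Samples of the 2 cell types did not overlap for 7, 8 and 17 of the 38 genes, beside 8.12%, 6.64% and 14.9% of all genes. The comparisons share their samples in pairs, so their calls are not independent of each other.

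**Figure D1:**
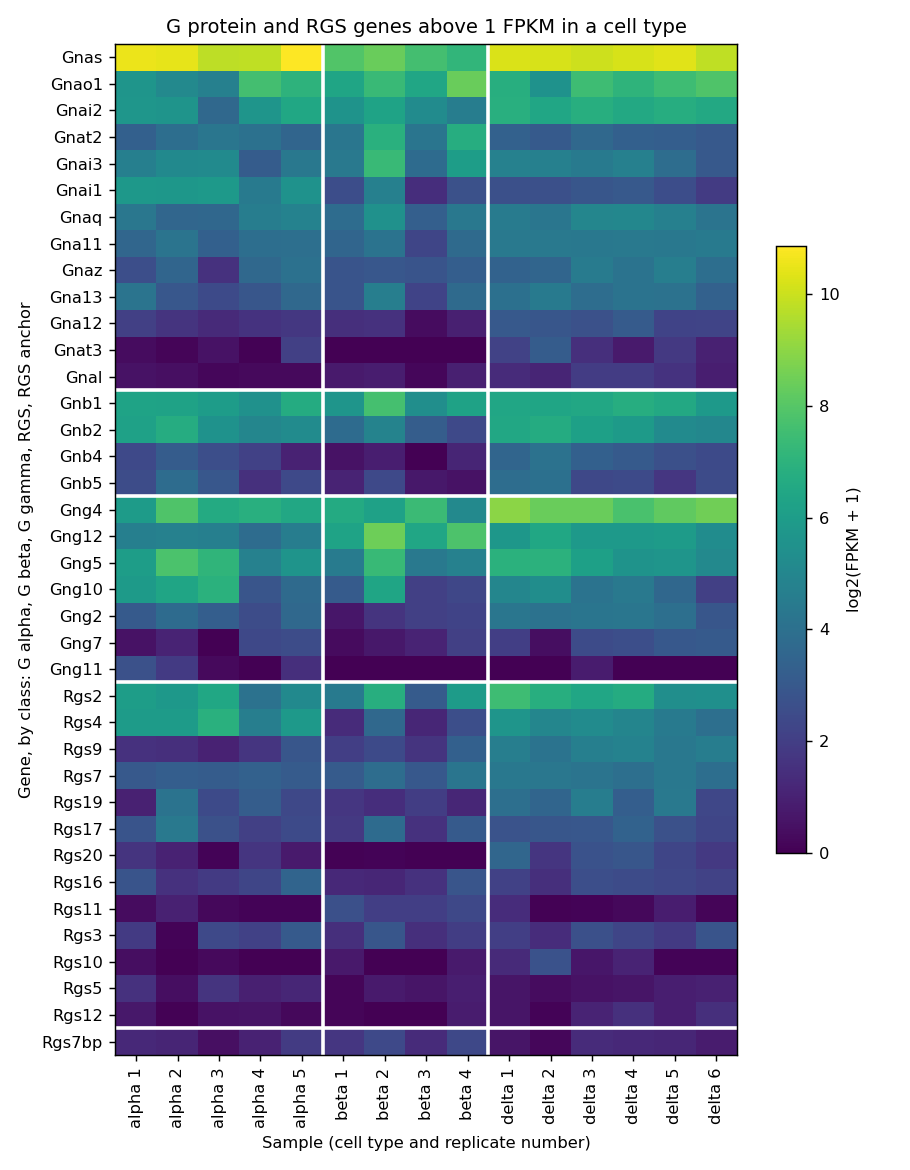
Heat map of log2(FPKM + 1) for the 38 G protein and RGS genes with a mean above 1 FPKM in at least 1 cell type, one row per gene and one column per sample, with white lines between classes and between cell types. Gnas forms the brightest row in alpha and delta samples, at 866 to 1856 FPKM, and is lower in the 4 beta samples, at 140 to 336 FPKM.

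**Figure D2:**
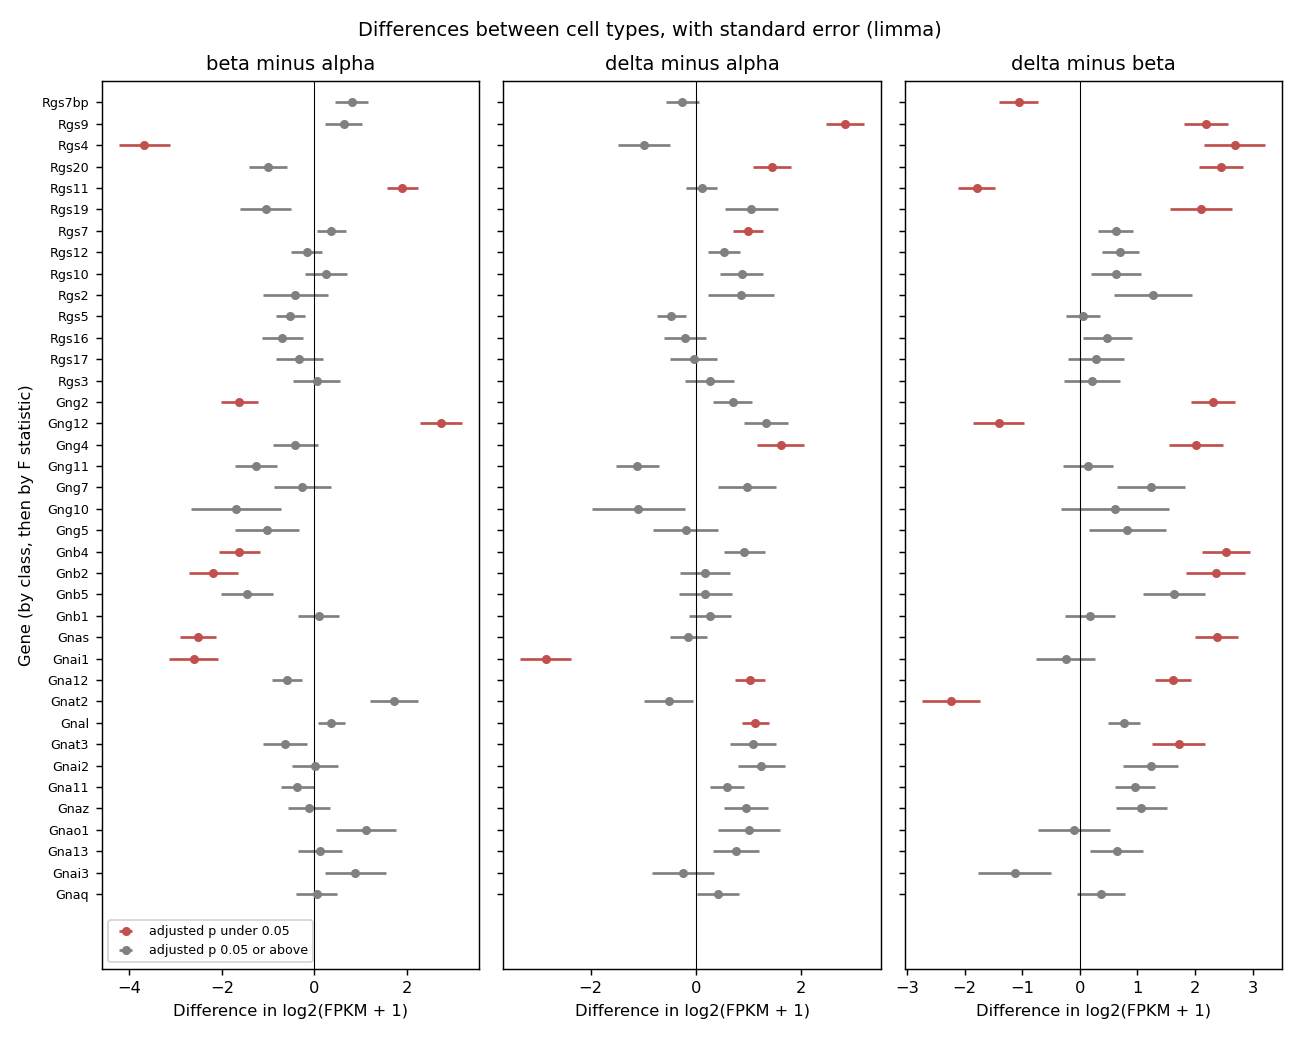
Differences in log2(FPKM + 1) for the 38 tested genes, as points with the standard error from limma, in panels for beta minus alpha, delta minus alpha and delta minus beta. Red points passed an adjusted p of 0.05, and they number 8, 7 and 15 from left to right.

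Gnas, which encodes the stimulatory alpha subunit Gs (chr2:174284320-174346744, plus strand, GRCm38), had the highest mean of the G alpha genes in each cell type and was lower in beta cells than in alpha or delta cells. It stood at 1509, 1423, 866, 896 and 1856 FPKM in the alpha samples. The beta samples had 242, 336, 196 and 140 FPKM, and the delta samples ran from 904 through a median of 1169 to 1339 FPKM. In beta 4 it was below Gnao1, at 335 FPKM. All 4 beta samples lay below all alpha and delta samples, while alpha and delta samples overlapped. The difference was -2.52 ± 0.39 (SE) on the log2 scale in beta against alpha cells (limma adjusted p = 0.000589) and 2.38 in delta against beta cells (adjusted p = 0.000444). Within the 6 samples rich in ribosomal protein transcripts the beta-alpha difference was -1.87, and within the other 9 it was -2.77 (limma adjusted p = 0.00624). Delta and alpha cells differed by -0.14 (limma adjusted p = 0.903). In these sorted bulk samples, a lower level in every cell and a smaller share of cells with the transcript cannot be told apart.

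The value of Gnas covers the whole locus, whose transcripts also encode the extra-large alpha subunit and the neuroendocrine protein NESP55, and the table does not divide it between them. On the opposite strand, Gm20721 shares 13.1% of the exonic bases of Gnas and Nespas, the antisense RNA of the imprinted locus, shares 8.83%. Strand use in counting is not stated in the sources used here, so reads of these genes may not be told apart. Gm20721 was listed at a mean of 664 ± 287 FPKM (SD, n = 5) in alpha samples, 172 ± 94.2 FPKM (n = 4) in beta samples and 624 ± 213 FPKM (n = 6) in delta samples. Nespas was at 28.4 to 52.6 FPKM in delta samples and at most 0.437 FPKM in the other 9. Gnal, which encodes Golf, the other stimulatory subunit and the one best known from olfactory neurons, was far less abundant than Gnas. It stood at 0.462, 0.381, 0.127, 0.205 and 0.214 FPKM in alpha samples and at 0.729, 0.825, 0.157 and 0.966 FPKM in beta samples. In delta samples it ran from 0.907 through a median of 1.78 to 2.83 FPKM, above each alpha sample, and the gene passed the filter through delta cells alone. The delta-alpha difference was 1.13 ± 0.26 (limma adjusted p = 0.0127), whereas delta against beta cells gave 0.77 (adjusted p = 0.0783). The delta-alpha difference in Gnal was 0.84 (adjusted p = 0.201) and 1.33 (adjusted p = 0.106) within the 2 sets of samples.

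In the inhibitory Gi/o family, Gnao1, the Go alpha subunit abundant in neurons and endocrine cells, had the highest mean in each cell type. However, Gnai1 exceeded it in alpha 1 to 3, Gnai2 in alpha 1, alpha 2, delta 1 and delta 2, and Gnai3 in alpha 2 and alpha 3. The mean of Gnao1 was 86.5 ± 73.0 FPKM (SD, n = 5) in alpha samples, 167 ± 119 FPKM (n = 4) in beta samples and 146 ± 64.2 FPKM (n = 6) in delta samples, with overlap between all 3, and it passed no test. In samples rich in ribosomal protein transcripts it was 25.5 to 50.0 FPKM in alpha and 46.0 to 111 FPKM in delta cells. In the other set it was 129 to 195 and 131 to 230 FPKM. Beta 2 had 164 FPKM and the other beta samples 82.7 to 335 FPKM. Gnai2 followed at 49.5 ± 26.6 FPKM in alpha and 101 ± 11.5 FPKM in delta samples. In beta samples Gnat2 and Gnai3 had like means, at 65.3 ± 54.8 and 65.2 FPKM, both uneven over the samples, while Gnai2, at 46.3 FPKM, exceeded both in beta 1 and beta 3.

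Gnai1 (chr5:18265135-18360355, minus strand), one of the 3 closely related Gi alpha subunits, was higher in alpha cells than in both other cell types. The alpha samples had 53.6, 53.2, 58.1, 20.5 and 44.7 FPKM. The beta samples had 4.93, 25.6, 1.69 and 5.53 FPKM, and the delta samples 2.66 through a median of 5.33 to 7.10 FPKM. Every delta sample was below every alpha sample, whereas beta 2 exceeded alpha 4. Gnai1 differed by -2.86 in delta against alpha cells (limma adjusted p = 0.000982) and by -2.61 in beta against alpha cells (adjusted p = 0.00603), the latter call being lost when these cell types were fitted alone, with or without a replicate block. The delta-alpha difference was -3.14 (adjusted p = 0.0215) within the samples rich in ribosomal protein transcripts and -2.38 (adjusted p = 0.0335) within the others. It was the 1 call of the 30 that held under every alternative tried. The beta-alpha difference in Gnai1 was -1.07 and -2.74 (limma adjusted p = 0.0163) within these sets. The 250 bases before the RefSeq start of Gnai1, at chr5:18360414-18360663 on the minus strand of GRCm38.p6, are shown because this gene carried the clearest alpha cell level among the G alpha subunits. They hold 43 CG pairs, beside a median of 6 over 32851 promoters of the same length, and none of the 3 motifs searched on both strands: TATAAA, TGACGTCA (the cyclic AMP response element) and ATTTGCAT (the octamer).
Gnai1: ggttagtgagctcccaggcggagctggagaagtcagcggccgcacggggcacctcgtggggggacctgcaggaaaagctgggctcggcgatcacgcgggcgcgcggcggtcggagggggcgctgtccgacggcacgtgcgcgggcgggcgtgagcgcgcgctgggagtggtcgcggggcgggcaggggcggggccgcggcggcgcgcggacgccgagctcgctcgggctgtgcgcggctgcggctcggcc

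The paralogous Gi genes Gnai2 and Gnai3 passed no test. Gnai2, at 101 FPKM on average in delta samples, had a delta-alpha difference of 1.24 (limma adjusted p = 0.13), and Gnai3 one of -0.25 (adjusted p = 0.903). Gnai3 was uneven in beta samples, at 19.8, 164, 12.9 and 64.3 FPKM, and so was Gnat2, which lies 5.85 kb away on chromosome 3. Gnat2 encodes the transducin of cone photoreceptors. It stood at 18.5, 118, 17.6 and 107 FPKM in the beta samples, at 8.95, 14.2, 17.9, 15.8 and 10.6 FPKM in the alpha samples and from 7.27 through a median of 8.76 to 11.9 FPKM in the delta samples. Beta 2 and beta 4 were thus high for both genes, and beta and delta samples did not overlap for Gnat2. Its difference was -2.24 in delta against beta cells (limma adjusted p = 0.00666), with -3.65 against beta 2 alone in the first set of samples and -1.76 (adjusted p = 0.0655) in the second. In beta against alpha cells Gnat2 differed by 1.72 (adjusted p = 0.0554), and this became a call under 5 other settings of all 15 samples and without beta 1 or beta 3.

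Gnat3, the alpha subunit of gustducin in taste cells, was listed at 0 in all 4 beta samples. Alpha samples were at 0.300, 0.107, 0.433, 0.0497 and 3.17 FPKM, and delta samples at 0.716 through a median of 2.12 to 7.94 FPKM. The delta-beta difference was called (limma adjusted p = 0.0189), but not with no filter on FPKM, and the adjusted p was 0.0909 within the 9 samples low in ribosomal protein transcripts. Gnat3 passed the filter through delta cells alone, and no fold is given against samples listed at 0. The delta-alpha difference was 1.08 (adjusted p = 0.184, or 0.0352 without alpha 5). Gnaz, whose product Gz is an inhibitory subunit resistant to pertussis toxin, ran from 1.92 to 15.4 FPKM in alpha, 6.09 to 8.53 FPKM in beta and 9.55 to 24.3 FPKM in delta samples and passed no test.

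Of the Gq/11 family, Gnaq had means of 18.5, 21.4 and 24.2 FPKM and Gna11 of 13.2, 10.96 and 19.9 FPKM in alpha, beta and delta samples. Neither passed a test, although the 6 delta samples, at 19.2 to 20.8 FPKM of Gna11, lay above all alpha and beta samples, which reached 17.3 FPKM. Gna12, of the G12/13 family (chr5:140758408-140830431, minus strand), was higher in delta cells. It stood at 3.19, 2.06, 1.44, 2.01 and 2.43 FPKM in the alpha samples, whereas the beta samples had 1.76, 1.94, 0.269 and 0.940 FPKM and the delta samples 3.61 through a median of 5.95 to 7.60 FPKM. The delta samples lay above all others. Gna12 differed by 1.62 in delta against beta cells (limma adjusted p = 0.00201) and by 1.03 in delta against alpha cells (adjusted p = 0.0407). The delta-alpha call was lost without any 1 of 10 samples (alpha 2 to 5, beta 1, beta 4 and delta 1 to 4), at adjusted p of up to 0.104. The other member of the family, Gna13, had means of 9.30, 11.6 and 15.3 FPKM and passed no test.

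As shares of the summed FPKM of the G alpha genes, Gnas took 82.1 ± 5.77% (SD, n = 5) in alpha samples, 39.8 ± 16.4% (n = 4) in beta samples and 75.6 ± 4.68% (n = 6) in delta samples. The summed level itself was 1044 to 2221 FPKM in alpha, 372 to 980 FPKM in beta and 1310 to 1745 FPKM in delta samples. The Gi/o genes made up 15.1 ± 5.28%, 53.4 ± 15.9% and 19.99 ± 4.82%, and in beta 4 they reached 74.5%. Every beta sample had a larger Gi/o share than every alpha and delta sample. The Gq/11 genes took 2.08%, 4.83% and 2.93% on average, and the G12/13 genes 0.714%, 1.82% and 1.40%. These shares compare transcript levels per length and not amounts of protein, and a lower Gnas level raises the other shares by itself.

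**Figure D3:**
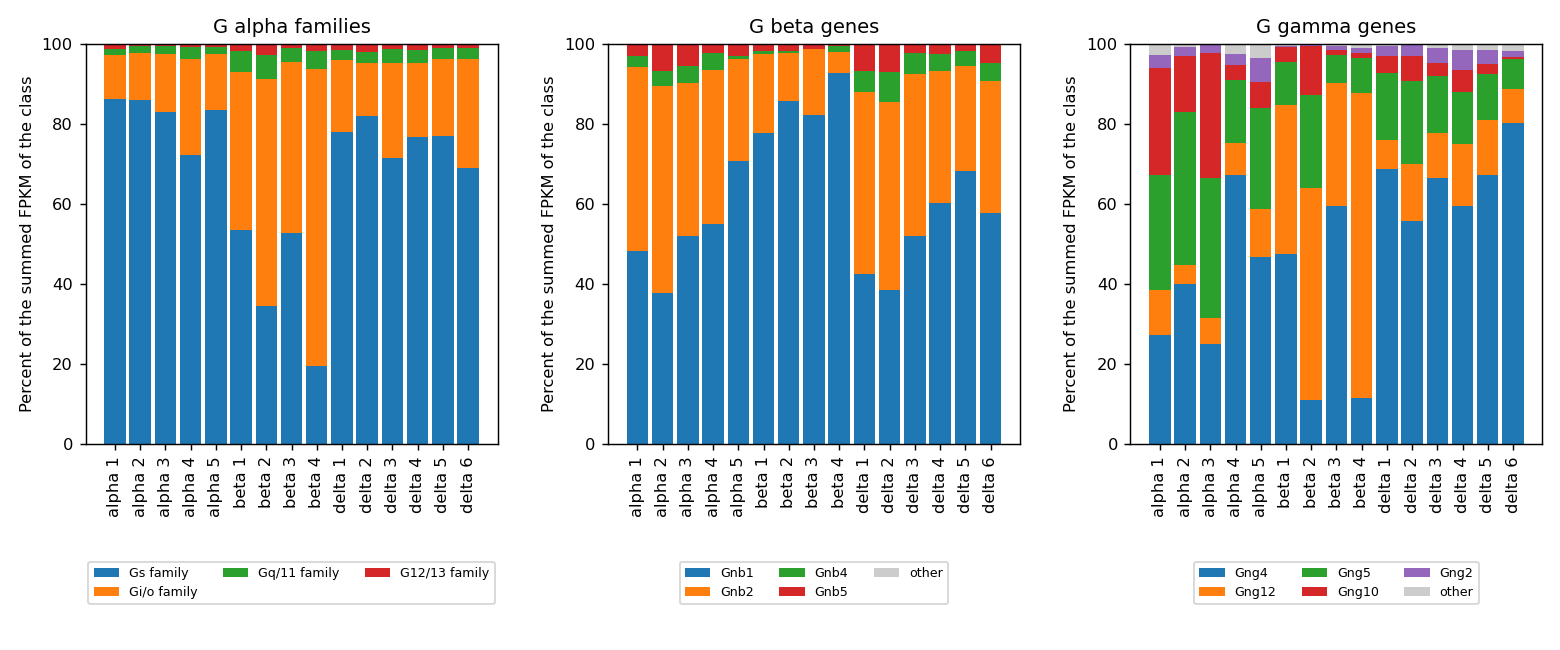
Stacked bars of the share of the summed FPKM of each class, in percent, for each of the 15 samples: G alpha genes by family, G beta genes and G gamma genes, with the rest in grey. The Gs family fills 72.1 to 86.1% of the alpha bars and 19.3 to 53.4% of the beta bars, and Gnb1 fills 77.7 to 92.7% of the beta bars.

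Among the G beta subunits, Gnb2 and Gnb4 were lower in beta cells than in alpha or delta cells. Gnb1, the most abundant of them by mean, had means of 72.1 ± 21.3, 91.1 ± 72.9 and 85.7 ± 16.7 FPKM (SD, n = 5, 4 and 6) in alpha, beta and delta samples and passed no test. Gnb2 exceeded Gnb1 in alpha 2, delta 1 and delta 2. Gnb2 (chr5:137528127-137533510, minus strand) stood at 73.8, 105, 45.8, 30.9 and 36.7 FPKM in alpha samples and at 12.9, 28.0, 8.13 and 4.23 FPKM in beta samples. In delta samples it ran from 32.1 through a median of 64.7 to 100 FPKM. The beta samples lay below all others. Gnb2 differed by 2.36 in delta against beta cells (limma adjusted p = 0.00535) and by -2.19 in beta against alpha cells (adjusted p = 0.0200), the latter call being lost without alpha 2 (0.0543) or beta 4 (0.0805).

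Gnb4 (chr3:32580332-32616585, minus strand) stood at 4.31, 8.03, 5.17, 3.27 and 1.05 FPKM in alpha samples and at 0.448, 0.890, 0.00507 and 1.19 FPKM in beta samples. In delta samples it ran from 4.39 through a median of 8.30 to 15.8 FPKM. Delta samples lay above all beta samples, while beta 4 exceeded alpha 5. The difference in Gnb4 was 2.54 in delta against beta cells (limma adjusted p = 0.000661) and -1.62 in beta against alpha cells (adjusted p = 0.0325). The latter call was lost without alpha 1, alpha 2, alpha 3, beta 1 or beta 3, at adjusted p of 0.0613 to 0.0842. With 0.1 FPKM added in place of 1 the Gnb4 differences were 3.96 and -2.84. Gnb5, the divergent G beta that binds the R7 family of RGS proteins in place of a gamma subunit, had means of 6.21, 1.64 and 7.40 FPKM and passed no test.

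Within the class, Gnb1 made up 52.7 ± 12.1% of the summed G beta FPKM in alpha samples, 84.6 ± 6.34% in beta samples and 53.2 ± 11.2% in delta samples. Gnb2 took 40.1 ± 9.91%, 13.4 ± 6.31% and 37.5 ± 8.20%. The sum of the class was 79.8 to 202 FPKM in alpha, 49.6 to 232 FPKM in beta and 97.5 to 214 FPKM in delta samples, with overlap between all 3.

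The G gamma subunits anchor the dimer to the membrane through a lipid group. By mean, Gng4, Gng5 and Gng10 led in alpha cells at 119 ± 65.6, 99.7 ± 79.9 and 56.5 ± 48.5 FPKM (SD, n = 5). Gng12, Gng4 and Gng5 led in beta cells at 187 ± 133, 92.9 ± 55.5 and 56.3 ± 67.0 FPKM (n = 4), and Gng4, Gng5 and Gng12 in delta cells at 339 ± 92.9, 74.7 ± 39.5 and 58.4 ± 16.0 FPKM (n = 6). Single samples departed from these orders. In alpha cells, Gng5 exceeded Gng4 in alpha 1 and alpha 3, Gng10 exceeded Gng4 in alpha 3, and Gng12 exceeded Gng10 in alpha 4 and alpha 5. Gng12 exceeded Gng4 in beta 2 and beta 4, and Gng4 exceeded Gng12 in beta 1 and beta 3. Gng5 and Gng10 exceeded Gng4 in beta 2, and Gng12 exceeded Gng5 in delta 4 to 6. Gng5 and Gng10 passed no test. Both were uneven within each cell type and higher there in the samples rich in ribosomal protein transcripts. In alpha samples Gng5 was at 64.1 to 222 FPKM in that set and 26.5 to 48.9 FPKM in the other. Gng10 was at 60.0 to 122 FPKM and 6.38 to 12.4 FPKM. Gng10 shares 72.0% of its exonic bases with Gm20503 on the same strand, so its reads could be assigned to either gene.

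Gng12 (chr6:66896397-67021350, plus strand) was highest in beta cells. Alpha samples were at 25.0, 26.5, 24.8, 13.3 and 23.1 FPKM, beta samples at 76.6, 356, 85.9 and 229 FPKM, and delta samples at 38.4 through a median of 56.0 to 87.2 FPKM. Each beta sample was above each alpha sample, and delta samples lay between, with delta 2 above beta 1 and beta 3. The difference was 2.74 in beta against alpha cells (limma adjusted p = 0.00122) and was 2.64 (adjusted p = 0.0168) within the 9 samples low in ribosomal protein transcripts. In the other set it was 3.76, with beta 2, the highest sample, as the 1 beta sample. Gng12 differed by -1.41 in delta against beta cells (adjusted p = 0.0411), a call lost without alpha 1, alpha 5, beta 2, beta 4, delta 1 or delta 3 to 6, at adjusted p of up to 0.133. In delta against alpha cells the difference was 1.33 (adjusted p = 0.0688), and it was called without beta 2 (0.0245) and under 4 other settings. The stretch before the first of 2 RefSeq starts of Gng12, chr6:66896147-66896396 on the plus strand, is shown for the beta cell pattern. It holds 28 CG pairs and none of the 3 motifs.
Gng12: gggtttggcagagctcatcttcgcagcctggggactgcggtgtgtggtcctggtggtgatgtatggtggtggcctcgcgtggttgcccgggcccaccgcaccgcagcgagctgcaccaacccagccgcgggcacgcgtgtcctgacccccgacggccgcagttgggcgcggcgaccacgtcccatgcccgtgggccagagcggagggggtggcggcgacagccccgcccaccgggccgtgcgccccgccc

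Gng4 (chr13:13784059-13827896, plus strand), a gamma subunit otherwise known from brain, was highest in delta cells. The alpha samples had 60.9, 231, 97.8, 113 and 89.9 FPKM, the beta samples 97.9, 73.4, 166 and 34.0 FPKM, and the delta samples 214 through a median of 335 to 497 FPKM. All delta samples lay above all beta samples, and alpha 2 lay above the lowest delta sample. Gng4 differed by 2.02 in delta against beta cells (limma adjusted p = 0.00801) and by 1.61 in delta against alpha cells (adjusted p = 0.0347). The delta-alpha call in Gng4 was lost without alpha 1, alpha 3 to 5, delta 1 to 3, delta 5 or delta 6, at adjusted p of up to 0.111. It was also lost with no filter, with the replicate block and under both other scalings, and the delta-beta call in Gng4 was lost with median-ratio size factors. Gng4 made up 66.3 ± 8.45% of the summed G gamma FPKM in delta samples, 41.3 ± 17.1% in alpha samples and 32.3 ± 24.9% in beta samples.

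Gng2 (chr14:19872559-19977627, minus strand), a widely used gamma subunit, was lowest in beta cells. The alpha samples had 7.35, 12.9, 8.37, 4.76 and 11.7 FPKM, the beta samples 0.591, 2.13, 3.15 and 3.48 FPKM, and the delta samples 6.44 through a median of 17.1 to 18.1 FPKM. The beta samples lay below all others. Gng2 differed by 2.32 in delta against beta cells (limma adjusted p = 0.000701) and by -1.62 in beta against alpha cells (adjusted p = 0.0216), the latter call being lost without alpha 2 (0.0564) or beta 1 (0.0830). Gng11 was at 0 in all 4 beta samples and in 5 of 6 delta samples, and ran from 0 to 5.48 FPKM in alpha samples, with no call. Gng7, the partner of Golf in the striatum, ran from 0 to 7.41 FPKM over the 15 samples and passed no test.

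**Figure D4:**
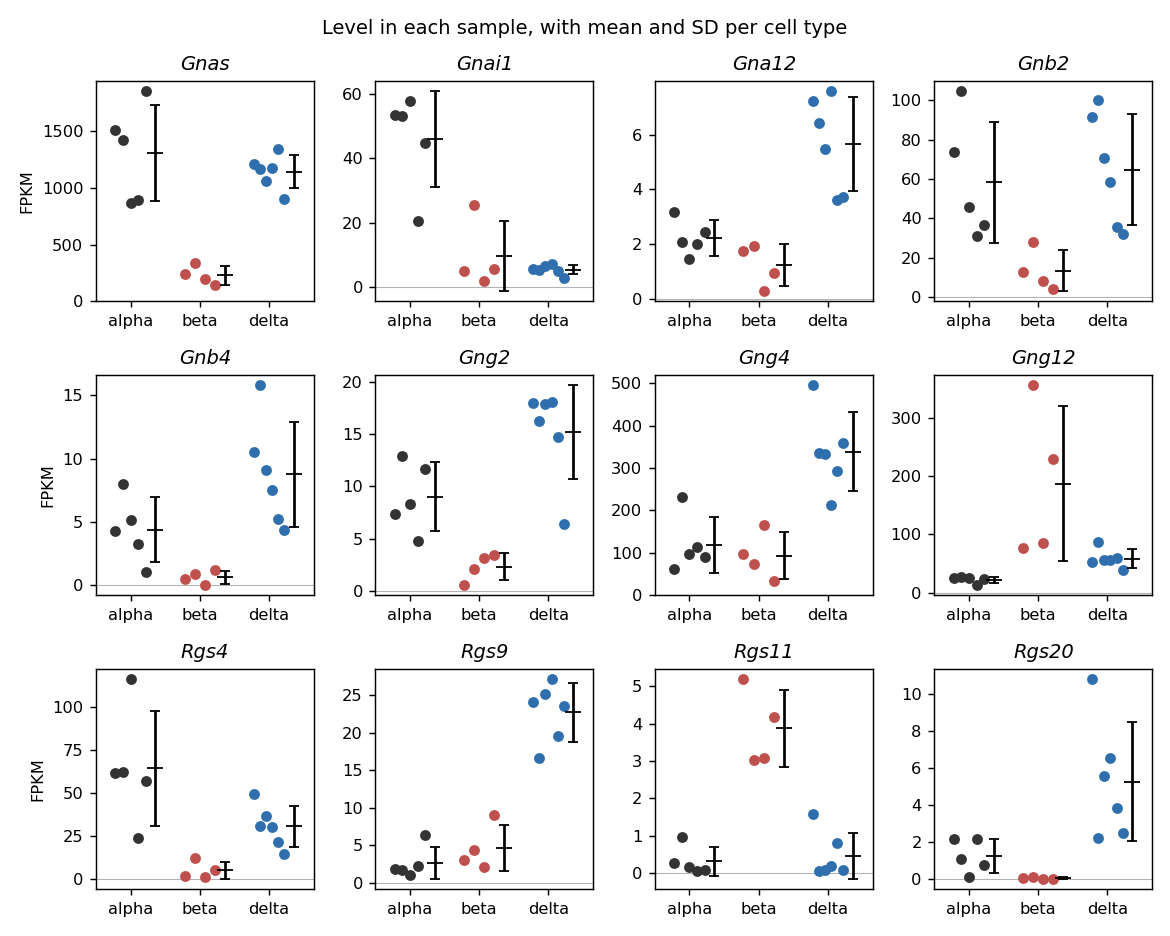
FPKM of 12 G protein and RGS genes in each sample (points; linear axes that differ between panels), with the mean and SD of each cell type as a bar to the right of its points, for 5 alpha, 4 beta and 6 delta samples. By their means, Gnas, Gnb2, Gng2 and Rgs4 are lowest in beta cells, Gng12 and Rgs11 highest there, Gnai1 highest in alpha cells and Rgs9 highest in delta cells, while delta 2 lies above 2 beta samples for Gng12 and beta 2 above alpha 4 for Gnai1.

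RGS genes are grouped by the domains beside the shared RGS box. The R4 family consists of small proteins that act on Gi and Gq, and it held the most abundant RGS transcripts. Rgs2, which acts mainly on Gq and is induced by cyclic AMP in many cells, was among the leading 2 RGS genes in each cell type at 51.3 ± 27.0, 50.5 ± 46.8 and 93.1 ± 51.0 FPKM (SD, n = 5, 4 and 6), and it passed no test. Rgs4 (chr1:169741477-169747642, minus strand), a fast-turnover regulator of Gi and Gq, was low in beta cells. It stood at 61.8, 62.0, 117, 23.9 and 57.0 FPKM in alpha samples, at 1.51, 11.9, 1.22 and 5.05 FPKM in beta samples and from 14.5 through a median of 30.5 to 49.2 FPKM in delta samples. No beta sample reached an alpha or delta sample. Rgs4 differed by -3.67 ± 0.55 in beta against alpha cells (limma adjusted p = 0.000475) and by 2.69 in delta against beta cells (adjusted p = 0.00273), while delta and alpha cells differed by -0.98 (adjusted p = 0.349). Within the 2 sets of samples the beta-alpha difference in Rgs4 was -2.59 and -3.56 (limma adjusted p = 0.00866 for the second). Rgs4 made up 40.1 ± 6.73% of the summed RGS FPKM in alpha samples, 4.60 ± 1.71% in beta samples and 14.97 ± 1.61% in delta samples.

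The bases before the RefSeq start of Rgs4, chr1:169747643-169747892 on the minus strand, are shown for the low level in beta cells. Among the 38 genes Rgs4 had the largest called difference on the log2(FPKM + 1) scale, while with 0.1 FPKM added Rgs20, at 5.20 in delta against beta cells, exceeded it. They hold TATAAA with its first base 31 bases before the start and ATTTGCAT at 157 bases, both in capitals. Of all 32851 promoters, 12.4% hold the first motif, 1.60% the second and 1.55% the cyclic AMP response element, which is not in this window.
Rgs4: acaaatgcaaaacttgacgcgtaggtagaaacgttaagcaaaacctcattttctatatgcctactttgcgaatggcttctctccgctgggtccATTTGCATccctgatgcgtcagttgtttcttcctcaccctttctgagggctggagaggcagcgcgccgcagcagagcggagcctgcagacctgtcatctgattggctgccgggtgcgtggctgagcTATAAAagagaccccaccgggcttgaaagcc

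Rgs5, which lies 45.7 kb from Rgs4 and is known as a pericyte gene, had means of 1.31, 0.570 and 0.613 FPKM and passed no test. The other tested R4 genes, Rgs3 and Rgs16, had means of 2.70 to 4.96 FPKM and passed no test.

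The R7 family, which acts on Gi and Go and is stabilised by Gnb5, had 3 tested genes. Rgs9 (chr11:109225355-109298129, minus strand), the regulator of transducin in photoreceptors and of dopamine signalling in the striatum, was highest in delta cells. Alpha samples were at 1.90, 1.77, 1.04, 2.21 and 6.41 FPKM, beta samples at 3.09, 4.37, 2.09 and 9.06 FPKM, and delta samples at 16.6 through a median of 23.8 to 27.2 FPKM. All delta samples lay above all alpha and beta samples, which overlapped each other. Rgs9 differed by 2.83 ± 0.36 in delta against alpha cells (limma adjusted p = 7.76e-05) and by 2.195 ± 0.39 in delta against beta cells (adjusted p = 0.00108). Within the 2 sets the delta-alpha difference in Rgs9 was 3.05 (adjusted p = 0.0507) and 2.34 (adjusted p = 0.0388). The bases before its RefSeq start, chr11:109298182-109298431 on the minus strand, are shown for the delta cell pattern, and TATAAA, in capitals, begins 195 bases before the start.
Rgs9: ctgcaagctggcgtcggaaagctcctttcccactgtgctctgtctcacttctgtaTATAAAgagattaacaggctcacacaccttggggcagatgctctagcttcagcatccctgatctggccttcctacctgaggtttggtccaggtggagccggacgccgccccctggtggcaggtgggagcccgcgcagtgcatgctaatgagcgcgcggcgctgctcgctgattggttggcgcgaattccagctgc

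Rgs11 (chr17:26202951-26211324, plus strand), of the same family and known from retinal bipolar cells, was highest in beta cells. The beta samples had 5.20, 3.03, 3.09 and 4.17 FPKM. The alpha samples had 0.277, 0.972, 0.167, 0.0757 and 0.0905 FPKM, and the delta samples 0.0513 through a median of 0.141 to 1.59 FPKM. The beta samples lay above all others, and the gene passed the filter through beta cells alone. Rgs11 differed by 1.90 in beta against alpha cells (limma adjusted p = 0.00173) and by -1.79 in delta against beta cells (adjusted p = 0.00116), and by 3.58 and -3.40 with 0.1 FPKM added in place of 1. Rgs7 (chr1:175059087-175492500, minus strand), the most abundant R7 gene of alpha and beta cells, stood at 7.08, 8.59, 8.03, 9.40 and 7.63 FPKM in alpha samples and at 7.65, 13.9, 6.85 and 17.8 FPKM in beta samples. In delta samples it ran from 14.0 through a median of 17.8 to 19.6 FPKM, above every alpha sample. The delta-alpha difference in Rgs7 was 0.99 (limma adjusted p = 0.0440), and the call was lost without any 1 alpha or delta sample, at adjusted p of up to 0.109. The R7 family made up 8.57 ± 4.67%, 27.6 ± 11.1% and 21.95 ± 6.83% of the summed RGS FPKM in alpha, beta and delta samples.

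Rgs7bp (chr13:104945904-105054930, minus strand), which tethers R7 proteins to the plasma membrane, stood at 2.31, 4.22, 1.56 and 4.09 FPKM in the beta samples. It was at 1.35, 1.20, 0.372, 1.04 and 2.71 FPKM in the alpha samples and from 0.129 through a median of 1.01 to 1.499 FPKM in the delta samples. Beta and delta samples did not overlap. Alpha and beta samples did, with a difference of 0.805 (limma adjusted p = 0.181). Rgs7bp differed by -1.06 in delta against beta cells (limma adjusted p = 0.0455), a call that held in only 3 of the 15 fits that left out 1 sample (alpha 3, alpha 5 or beta 3), with adjusted p of up to 0.141 in the other 12. Rgs9bp, the anchor of Rgs9 in photoreceptors, reached at most 0.110 FPKM and was not tested.

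The RZ family, whose members act on Gz and other Gi subunits, had 2 genes higher in delta than in beta cells. Rgs20 (chr1:4909576-5070285, minus strand), also named RGSZ1, stood at 0.0369, 0.0844, 0 and 0 FPKM in the beta samples. Alpha samples stood at 2.14, 1.05, 0.0784, 2.15 and 0.739 FPKM, and delta samples at 2.21 through a median of 4.71 to 10.8 FPKM. The delta samples lay above all others. Rgs20 differed by 2.45 in delta against beta cells (limma adjusted p = 0.000499) and by 1.45 in delta against alpha cells (adjusted p = 0.0223), the latter call being lost without alpha 3 (0.0659), delta 3 (0.0530) or delta 4 (0.0570). With 0.1 FPKM added in place of 1, the Rgs20 differences were 5.20 and 2.25.

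Rgs19 (chr2:181688419-181693977, minus strand), also named GAIP and the founding member of the family, stood at 2.25, 1.66, 2.89 and 1.27 FPKM in the beta samples. The alpha samples were uneven, at 0.976, 16.4, 4.36, 8.34 and 4.07 FPKM, and the delta samples ran from 4.01 through a median of 12.6 to 23.5 FPKM, above each beta sample. Rgs19 differed by 2.11 in delta against beta cells (limma adjusted p = 0.0142, or 0.0504 without beta 4). Rgs17, the third member, had means of 7.80, 6.13 and 6.31 FPKM and passed no test. In the R12 family, Rgs10 and Rgs12 had means above 1 FPKM in delta samples alone and passed no test. The mean of Rgs10, 1.51 FPKM, rested on delta 2 at 5.73 FPKM, the other delta samples being at 0.0873 to 1.45 FPKM, and Rgs12 ran from 0.0774 to 1.85 FPKM around a mean of 1.04 FPKM.

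All 30 differences called in the 3 comparisons kept their sign in both sets of samples split by ribosomal protein transcripts. The calls came from a fit of these same samples, so this is a description. In the set rich in these transcripts, beta 2 alone stands for beta cells. Within the 9 samples low in these transcripts, 19 of the 30 passed the test. Within those 9, the calls lost in delta against alpha cells were Gna12 (0.88, limma adjusted p = 0.331), Gng4 (1.54, adjusted p = 0.231), Rgs7 (0.86, adjusted p = 0.357) and Rgs20 (1.20, adjusted p = 0.154), beside Gnal. In beta against alpha cells they were Gnb4 (-1.01, adjusted p = 0.219) and Gng2 (-1.47, adjusted p = 0.174). In delta against beta cells they were Gng12 (-1.13, adjusted p = 0.102) and Rgs7bp (-0.67, adjusted p = 0.193), beside Gnat2 and Gnat3. Of the calls that held there without values above, Gnb2 was at -1.99 and Rgs11 at 2.23 in beta against alpha cells. For delta against beta cells, Gnb2 was at 2.45, Rgs11 at -2.01, Gnas at 2.55, Rgs4 at 2.97 and Rgs9 at 2.30, while Gna12 was at 1.64, Gnb4 at 2.32, Gng2 at 2.21, Gng4 at 1.83, Rgs19 at 2.03 and Rgs20 at 2.41. Within the other 6 samples, delta-alpha differences that involve no lone sample were 1.31 for Gna12, 1.87 for Gng4, 1.18 for Rgs7 and 1.69 for Rgs20, and none of these 4 passed the test. The calls were made across 18 genes, and 20 of the 30 held in all fits that left out 1 sample.

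The other 17 genes had means of 1 FPKM or less in each cell type. Rgs14, Rgs18 and Gng8 were listed at 0 in all 15 samples. Gna14, Gna15, Gnat1, Gnb3, Gng3, Gng13, Gngt1, Gngt2, Rgs1, Rgs6, Rgs13 and Rgs9bp reached at most 0.732 FPKM in a sample, Rgs8 reached 1.65 FPKM in beta 3, and Rgs22 was above 0 in the 6 delta samples, at 0.0910 to 1.10 FPKM, and in none of the other 9. Gnat1, the rod transducin, was above 0 in 1 sample, and Gna15, the Gq-type subunit of blood cells, in 2.

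Genes that act beside G proteins were described from a list of 28, of which 27 were found in the table and 23 passed the filter. In beta against alpha cells 1 was higher and 3 lower, in delta against alpha cells 1 was higher and 1 lower, and in delta against beta cells 3 were higher and 2 lower, beside 7.66%, 6.81% and 14.7% of all genes called. The called genes were channels gated by G beta-gamma, receptor-like anchors of R7 proteins and a receptor kinase. Kcnj3, a channel subunit, differed by -3.33 in beta against alpha, -1.29 in delta against alpha and 2.04 in delta against beta cells. Kcnj6, its partner subunit, differed by -1.64 in beta against alpha and 1.43 in delta against beta cells. Gpr158, an orphan receptor that binds R7 proteins, differed by 4.41 in beta against alpha and -3.22 in delta against beta cells and was highest in beta cells, as was Rgs11. Gpr179, its relative from retinal bipolar cells, differed by -1.40 in beta against alpha, 2.82 in delta against alpha and 4.22 in delta against beta cells. It was highest in delta cells, as was Rgs9, and lowest in beta cells, where Rgs11 was highest. Links between anchors and RGS genes were not tested. Grk5, which phosphorylates active receptors, differed by -1.87 in delta against beta cells. None of the 6 tested G protein chaperones and exchange factors and none of the 3 tested phospholipases C was called, nor were Kcnj5 and Kcnj9 above the filter.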

How the data were processed

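The authors sorted the cells, amplified RNA with the NuGEN Ovation RNA-Seq V2 kit, sequenced single 50-base reads, aligned them to GRCm38 with TopHat and computed FPKM with Cufflinks 2.2.1. The deposited values are these FPKM, 1 column per sample. The TopHat version is given as 2.0.8 in the submitters' processing notes and differently in the methods, and the annotation release and the use of strand are not given in the sources used here. FPKM are not counts, so the authors' edgeR test on counts was not repeated.

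From these values, log2(FPKM + 1) was fitted with limma 3.58.1 in R 4.3.3, with a mean-variance trend, over all 15 samples (5 alpha, 4 beta, 6 delta). Genes with a mean above 1 FPKM in at least 1 cell type (14405) were tested, with Benjamini-Hochberg adjustment over all of them. A logarithm with 1 FPKM added understates changes of low genes. The script was tested on simulated data. The rule for named genes took those with an adjusted p under 0.05 in any pair, the 3 most abundant of each class and, as a list, those below the filter; other tested genes are named as family members, chosen after their values were seen. Members and lists were chosen with earlier results of these data known. All 55 genes were found in GENCODE M21, whose overlaps are given, and 40 matched the RefSeq promoter table (GRCm38.p6). Same-numbered samples of different cell types were checked for pairing (13 pairs, correlation of deviations above 0.1 in 5) and were not treated as pairs. Alternatives were a pseudocount of 0.1, no filter, a filter of 5 FPKM, other scalings, a block, no trend, the sets of samples and each sample left out.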

Additional observations from a re-analysis of the deposited data

Results flagged for a closer look

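In 8 of 114 groups of samples examined, the highest or lowest sample stood apart from the others of its cell type by Dixon's criterion on log2(FPKM + 1), where chance gives about 5.7. Low samples were alpha 4 for Gnai1, at 20.5 FPKM against 44.7 to 58.1 FPKM, and for Gng12, at 13.3 FPKM against 23.1 to 26.5 FPKM. The third low sample was delta 6 for Gng2, at 6.44 FPKM against 14.7 to 18.1 FPKM. High samples were beta 2 for Gng5, at 157 FPKM against 19.9 to 26.2 FPKM, and alpha 5 for Gnat3, at 3.17 FPKM against 0.0497 to 0.433 FPKM. Beta 2 is the 1 beta sample rich in ribosomal protein transcripts, and Gng5 was higher in that set in alpha and delta samples too. Near the bottom of the scale, Rgs11 in alpha 2 was 0.972 FPKM against 0.0757 to 0.277 FPKM, Rgs12 in beta 4 was 0.793 FPKM against 0 to 0.102 FPKM, and Gng11 in delta 3 was 0.781 FPKM where the other 5 delta samples were listed at 0.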

How the results depend on the processing

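All 30 called differences kept their sign under every alternative tried for them, and 1 of them, Gnai1 in delta against alpha cells, also kept its adjusted p under 0.05 in all (limma). The alternatives use the same samples that gave the calls. Of the 30, 27 held with a pseudocount of 0.1 FPKM, 22 with no filter, 28 with median-ratio size factors, 26 with quantile normalization, 30 with the set of samples as a covariate, 29 without a trend, 19 within the 9 samples low in ribosomal protein transcripts and 4 within the 6 high ones, 3 of them against beta 2 alone. The calls lost were, for delta against alpha cells, Gna12 (pseudocount, no filter, quantiles), Rgs20 (no filter, quantiles), Gng4 (no filter, both scalings), Gnal (quantiles) and Rgs7 (pseudocount). The filter of 5 FPKM also lost Gna12, Rgs20 and Rgs7 in this comparison. For delta against beta cells they were Gng4 (median ratios), Gng12 and Gnat3 (no filter) and Rgs7bp (pseudocount, no filter, no trend), and for beta against alpha cells Gnb2 and Gnb4 (no filter). Fitting the compared cell types alone lost Gnai1, Gnb2, Gnb4 and Gng2 in beta against alpha, Rgs20 in delta against alpha and Gng12 in delta against beta cells. The count by the F-test (16) is not compared with one from the 6 high samples. No share of all genes was worked out for that test there, and beta 2 is the 1 beta sample. The count for beta against alpha cells (8) was 3 within the 6 high samples (beside 4.97% of all genes) and 4 when these cell types were fitted alone (3.07%). That for delta against alpha cells (7) was 3 with a filter of 5 FPKM (5.64% of all genes), 4 with quantile normalization (7.55%), 1 within the 6 high samples (1.09%) and 2 within the other 9 (4.48%). That for delta against beta cells (15) was 4 within the 6 high samples (5.16% of all genes). Beta 2 is the 1 beta sample there, its spread being taken from the other groups, so these counts against beta cells describe that library and say nothing on stability. These fits hold fewer samples or fewer genes, or scale the samples differently, and the cause was not tested further. Leaving out 1 sample gave 14 to 18 calls by the F-test, for which the share of all genes was not worked out. In beta against alpha cells it gave 5 (without alpha 2, beside 4.88% of all genes) to 9 calls (without alpha 4, 7.87%, or beta 2, 11.9%). In delta against beta cells it gave 12 (without beta 4, 9.89%) to 16 calls (without alpha 3, 15.4%, or beta 2, 18.5%). In delta against alpha cells it gave 3 calls without alpha 3 (5.83%) or delta 3 (5.59%). It gave 4 without delta 1 (5.99%), delta 2 (7.02%) or delta 4 (5.51%), and up to 8 without beta 2 (7.30%). The shares of all genes thus moved as well.

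Same-numbered samples were not treated as pairs, since no label ties a number to a sort and the correlation of their deviations ran from -0.152 to 0.281 over 13 pairs. Beta cells were, however, collected in Glu-Venus sorts, as alpha cells were, and for alpha and beta replicates 1 to 4 the correlations were -0.039, 0.271, -0.152 and 0.073. A block for replicate number over all 15 samples left 26 of the 30 calls, without Gng4 and Rgs7 in delta against alpha and Gng12 and Rgs7bp in delta against beta cells. Delta cells came from another mouse line, so this block ties them to the others by number only. The block over alpha and beta replicates 1 to 4 alone left 0 calls among these genes by limma, with 12 at an unadjusted p under 0.05 and 1.53% of all genes called, beside 8 called and 13 at an unadjusted p under 0.05 in the full fit. Under median-ratio scaling the median difference of all genes moved from -0.13 to 0 in beta against alpha, from 0.13 to 0.001 in delta against alpha and from 0.30 to 0.001 in delta against beta cells. A pseudocount of 0.1 enlarged the differences of low genes, as in Gnal in delta against alpha cells, at 2.36 against 1.13. Depth is unknown for 11 samples, so no counting interval is given for values below 1 FPKM.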
